A study of Mus musculus with 2 samples.

Results

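The collagen-rich and collagen-poor spots of the TOP2B transgenic heart section were compared, 153 spots of each, out of 613 interior spots and 924 spots over tissue in that section and 2180 spots over both sections of the series. A spot was interior when it held at least 1000 UMIs (unique molecular identifiers, each standing for 1 captured probe molecule) and all 6 of its neighbors lay over tissue. Each interior spot was scored by the share of its UMIs from Col1a1, Col1a2 and Col3a1, which encode the chains of the main fibrillar collagens of the heart. The spots were ranked by this share and divided into 4 groups of 153 or 154, of which the highest, called collagen-rich, was set against the lowest, called collagen-poor. The spots were thus chosen by a measured value, the 3 score genes are given only as a description, and all values below describe spots of 1 section, without a test.

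The Visium CytAssist assay transfers gene probes hybridized in a slice of fixed, paraffin-embedded tissue onto a grid of spots, each with its own barcode. The TOP2B transgenic mouse (α-MHC-MerCreMer+/− hTOP2B LSL/−) carried 2 alleles, a tamoxifen-inducible Cre under the cardiomyocyte promoter α-MHC and a human TOP2B cDNA that is silent until Cre removes a STOP cassette. The control mouse (α-MHC-MerCreMer+/−) carried the same Cre without the TOP2B allele, and both received a single intraperitoneal dose of tamoxifen of 80 mg/kg, which the methods place at 6 weeks of age. Each genotype was 1 section of 1 heart, so that genotype and section cannot be told apart and no difference has a replicate check. The control section, scored by the same rule, gave 256 collagen-rich and 256 collagen-poor spots among 1025 interior spots of 1256.

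Fibrillar collagen is deposited by cardiac fibroblasts, which on injury or load take on an activated state with matricellular proteins, cross-linking enzymes and small proteoglycans. The ventricular cardiomyocyte lives largely on fatty acid oxidation and is packed with mitochondria and sarcomeres. In a stressed heart it returns to fetal genes, such as Nppa for atrial natriuretic peptide and Myh7 for the slow myosin heavy chain. A spot covers cells of several types, so that fewer cells of a type and less RNA per cell cannot be told apart in any value given here.

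The collagen-rich spots were somewhat deeper than the collagen-poor spots. The collagen-rich group held 2484581 UMIs, with a median of 16137 and a range of 8539 to 28695 per spot. The collagen-poor group held 2013320 UMIs, with a median of 14085 and a range of 2132 to 20730. Expression is given as CPM (the UMIs of a gene summed over a group, divided by the group's total and scaled by 1e+06) or, for single spots, as UMIs per 10000, and differences as log2 ratios of collagen-rich over collagen-poor CPM with a 95% interval that covers counting error only. Top2b, the mouse gene matching the transgene, had similar levels in both groups. The median of Top2b was 0.74 UMIs per 10000 in collagen-rich and 0.79 in collagen-poor spots, with a log2 ratio of 0.00 (−0.27 to 0.28), and whether the mouse probes read the human cDNA is not given in the sources used here.

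The score itself spanned a wide range in the transgenic section. Its median was 0.706% of UMIs in collagen-rich spots (0.574% to 1.84%) and 0.108% in collagen-poor spots (0% to 0.179%). The spot ranked last inside the collagen-rich group scored 0.573658% and the first outside it 0.573139%, and at the collagen-poor boundary these values were 0.178891% and 0.178902%. The collagen-rich median of the control section was 0.127%, a level within the range of the collagen-poor transgenic spots. Col1a1, Col1a2 and Col3a1 were 2.77, 2.86 and 2.69 higher on the log2 scale in the collagen-rich group, which the rule itself set. When spots were ranked on one random part of their UMIs and measured on the remainder, these differences were 2.53, 2.66 and 2.47. When each spot was ranked by its 6 neighbors in place of itself, they were 2.48, 2.68 and 2.43.

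**Figure D1:**
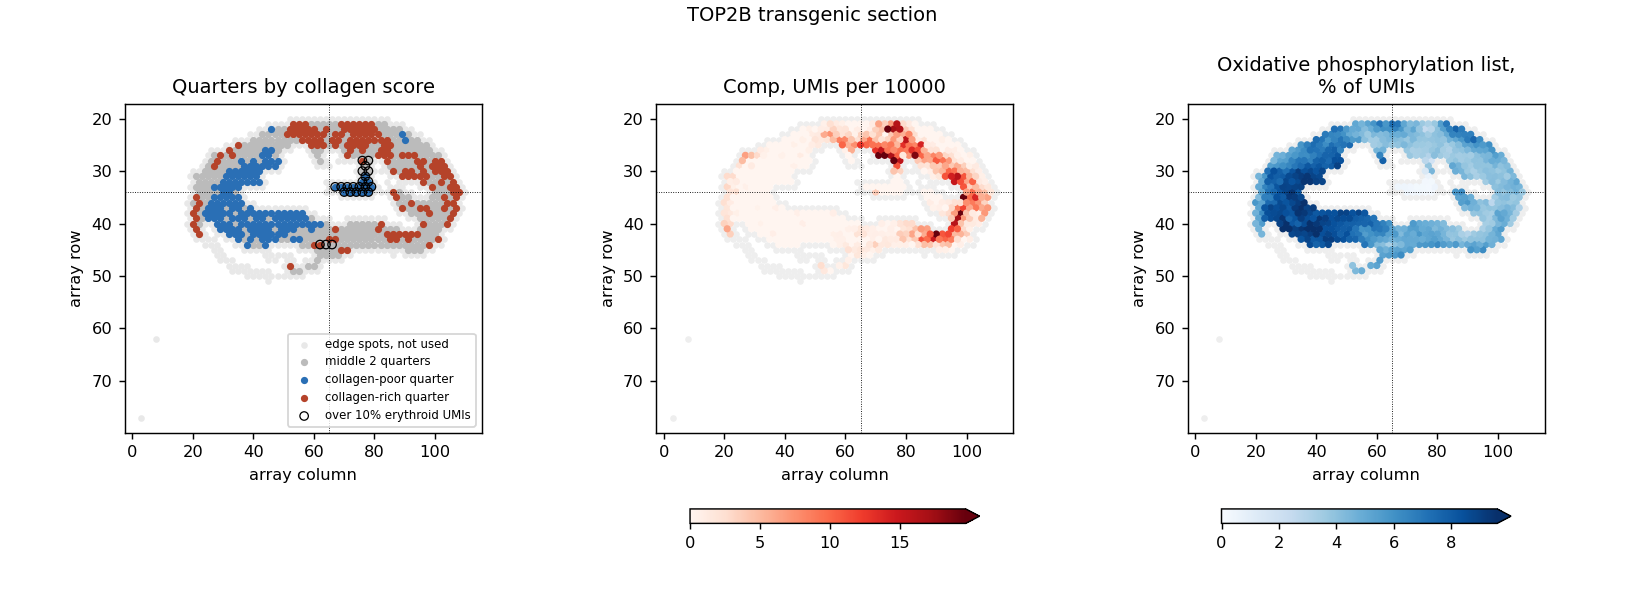
Maps of the TOP2B transgenic section, with each point a spot at its array row and column, light gray points the edge spots left out, and dotted lines the borders of the 4 quadrants. Left, collagen-rich spots (red), collagen-poor spots (blue) and spots with over 10% erythroid UMIs (black rings). Middle, Comp in UMIs per 10000. Right, the share of UMIs from the oxidative phosphorylation list. The largest collagen-poor patch held 133 spots on 1 side of the section, where Comp was near 0 and the oxidative phosphorylation share was highest.

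Collagen-poor spots formed a compact region and collagen-rich spots a scattered one. The 153 collagen-poor spots lay in 5 patches of touching spots, the largest of 133, whereas the collagen-rich spots lay in 25 patches, the largest of 44. The collagen-poor and collagen-rich spots of the control section lay in 76 and 79 patches. Among the interior neighbors of a collagen-rich spot 57.6% were also collagen-rich and 0% collagen-poor. The section was divided into 4 quadrants at the median row and column of the interior spots, numbered 1 and 2 in the upper row of the maps and 3 and 4 in the lower row. The collagen-rich spots numbered 29, 79, 12 and 33 in quadrants 1 to 4, and the collagen-poor spots 42, 17, 94 and 0. Much of the contrast thus lies between sides of the section, and values with the 4 groups formed inside each quadrant are given as values inside quadrants. Of the collagen-rich spots 43.8% bordered the outermost ring of spots, against 36.6% of the collagen-poor spots.

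Blood-rich spots stood apart from the rest. In 23 interior spots, 11.4% to 87.3% of UMIs came from erythroid genes such as the hemoglobins, whereas the next spot held 8.56% and the interior median was 0.565%. The collagen-poor group held 15 of them, all in quadrant 2, the collagen-rich group held 2, and the control section held none. Of the UMIs of the 17 collagen-poor spots in quadrant 2, 61.3% were erythroid, against 0.811% and 0.857% in quadrants 1 and 3, and directions within the section are therefore given for quadrants 1 and 3. All 8 erythroid genes with at least 20 UMIs were at least 1.5-fold lower in collagen-rich spots, against 7.42% of all genes at this count. Their median log2 ratio was −2.05. With the 23 spots left out, 2 of 8 were lower, with a median of −0.38. That change was set by the choice of these spots, which rested on the same genes. Without the 23 spots, the rule gave 147 spots in each group, 138 of the collagen-poor ones the same as before, and the main lists are also given on that basis. Values inside quadrants keep the blood-rich spots unless stated otherwise.

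With counts scaled by total UMIs, more genes were higher than lower in collagen-rich spots, an order that turned under some other scalings and not under others. Of 6293 genes with at least 100 UMIs over both groups, 1143 were at least 1.5-fold higher (18.2%) and 495 at least 1.5-fold lower (7.87%), and the median log2 ratio over all of them was 0.18. Without blood-rich spots 1019 genes were higher (16.1%) and 529 lower (8.38%) of 6312. Scaling by edgeR TMM factors moved all log2 ratios down by 0.22 and gave 659 higher and 841 lower genes, and DESeq2 size factors gave 634 and 906, so that the share of higher genes among those past 1.5-fold went from 69.8% to 43.9% and 41.2%. More genes stayed higher than lower with totals that left out the 50 most abundant genes (941 and 585). This was also so with means over spots (1441 and 410). The same rule applied to the control section gave 190 higher (2.85%) and 15 lower (0.225%) of 6671 genes. Of the 1143 higher genes 1107 were also higher in quadrant 1 and 1048 in quadrant 3. Of the 495 lower genes 487 and 462 were also lower there. These quadrants held 42 and 94 of the 153 collagen-poor spots that set the calls, so that agreement there was largely fixed in advance. In quadrant 2, where the collagen-poor spots were blood-rich, 1064 higher and 106 lower genes kept their direction. Inside quadrants, 634 genes were higher (10%) and 240 lower (3.78%). With blood-rich spots also left out, groups inside quadrants gave 479 higher (7.47%) and 232 lower (3.62%) of 6412 genes.

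The matricellular and activated fibroblast genes had the highest median ratio of the 26 gene lists. In this list 25 of 27 members with at least 20 UMIs were at least 1.5-fold higher and none lower, against 24.9% higher and 7.42% lower of all 10495 genes at this count. The median log2 ratio was 2.04, against 0.23 over those genes. It was 2.03 without blood-rich spots, 1.23 inside quadrants and 1.11 inside quadrants without blood-rich spots. In the control section it was 0.89, where 7.95% of all genes at this count were higher and 2.3% lower. The shares of 24.9% and 7.42% are the background for the list counts that follow, other than those inside quadrants. There list members were counted from 20 UMIs, but the shares of all genes were taken only at 100 UMIs. Such shares can be too low as a background, since in the main comparison the higher share was 18.2% at 100 UMIs and 24.9% at 20. As a sum, the list took 1.48% of UMIs in collagen-rich and 0.445% in collagen-poor spots, a log2 ratio of 1.73 (1.70 to 1.77).

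Comp, a cartilage-type matrix protein that binds and aligns collagen fibrils, had the highest ratio by the naming rule. It had 1386 UMIs in the collagen-rich and 10 in the collagen-poor group, a log2 ratio of 6.81 (5.93 to 7.87). Across collagen-rich spots it ranged from 0 to 28.1 UMIs per 10000 with a median of 4.11 and was found in 141 of 153 spots, whereas in collagen-poor spots the median was 0, the highest value 3.84 and 10 spots held any. No collagen-poor spot exceeded the collagen-rich median, and 78 collagen-rich spots exceeded every collagen-poor spot. Among the 138 collagen-poor spots that were not blood-rich the highest value was 1.12, which 121 collagen-rich spots exceeded. The log2 ratio was 5.98 in quadrant 1 and 5.70 in quadrant 3. It was only 1.99 inside quadrants, or 1.62 there without blood-rich spots, and 4.05 when the 4 groups were formed inside ranges of spot depth. Over all interior spots, whatever their score, Comp was at 123, 548, 43.0 and 414 CPM in quadrants 1 to 4. The control section had 21 UMIs of Comp in collagen-rich and 9 in collagen-poor spots.

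Thbs4, a thrombospondin of stressed muscle and tendon, had 546 against 5 UMIs, and a log2 ratio of 6.47 (5.24 to 8.10), or 2.98 inside quadrants. Cthrc1, a secreted protein that marks activated fibroblasts, had 261 against 5 UMIs, a log2 ratio of 5.40 (4.16 to 7.04), or 2.77 inside quadrants. Control spots held few of either, with 12 and 1 UMIs of Thbs4 and 1 UMI of Cthrc1 in each group. Postn encodes periostin, a matricellular protein of activated fibroblasts. Its median was 8.15 UMIs per 10000 in collagen-rich spots (0 to 34.7) and 0.91 in collagen-poor spots (0 to 6.52). The ranges overlapped, with 92 collagen-rich spots above all collagen-poor spots, and the log2 ratio was 2.99 (2.80 to 3.17), or 2.19 inside quadrants. The control section had 26.3 and 12.9 CPM of Postn, both far under the 1044 CPM of collagen-rich and the 132 CPM of collagen-poor transgenic spots.

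Other members of the list followed in the same direction. Cilp, a cartilage intermediate layer protein, was higher by 3.54 and Ltbp2, a microfibril-associated protein, by 3.49. Ccn5 was higher by 3.12, Fn1 (fibronectin) by 2.33, Eln (elastin) by 2.35 and Ccn2 (connective tissue growth factor) by 1.35 on the log2 scale. Inside quadrants these values were 2.27 for Cilp, 2.21 for Ltbp2, 1.39 for Ccn5, 1.90 for Fn1, 1.48 for Eln and 0.78 for Ccn2. Ltbp2 had 3 UMIs in each control group. Among genes outside the lists, the rule named Serpina3n, a secreted protease inhibitor (4.13), C3, the central complement protein (3.97), the Wnt modulator Sfrp2 (3.66) and Fndc1 (3.52). Inside quadrants they were at 1.85, 1.22, 2.03 and 2.27. With blood-rich spots also left out they were at 1.75, 0.82, 2.00 and 2.09. Serpina3n was found in 140 collagen-rich and 28 collagen-poor spots.

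**Figure D2:**
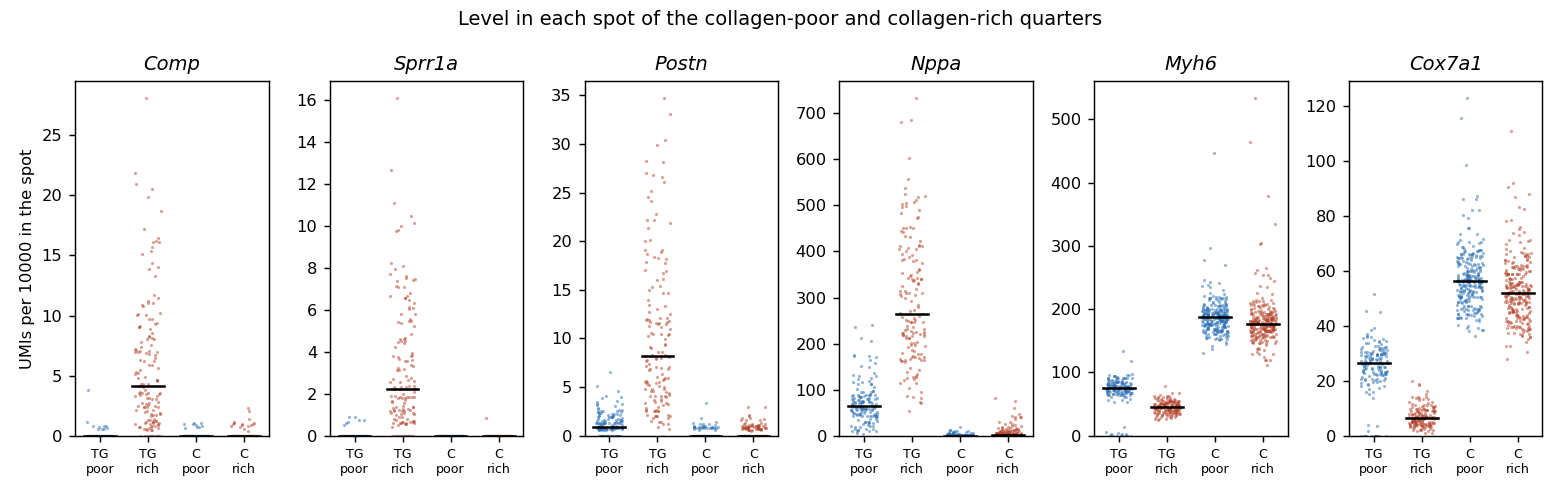
Level of 6 genes in each spot, in UMIs per 10000 on a linear axis from 0, for collagen-poor (blue) and collagen-rich (red) spots of the transgenic (TG) and control (C) sections, with a black line at each median. Comp and Sprr1a were near 0 in all groups but the collagen-rich transgenic spots, and Cox7a1 had a median of 6.56 in collagen-rich and 26.3 in collagen-poor transgenic spots against 51.9 and 56.3 in the control section.

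Collagens other than the score genes were higher as a group, with values that varied by class. Of 26 measured members 24 were at least 1.5-fold higher and none lower, with a median log2 ratio of 1.43, of 1.38 without blood-rich spots, 1.16 inside quadrants and 0.68 in the control section. The 5 fibril-associated collagens, which sit on fibril surfaces, had a median of 2.62, led by Col12a1 at 4.94 on 38 against 1 UMIs, or 2.34 inside quadrants. The network-forming chains Col8a1 and Col8a2 were higher by 2.23 and 4.49, the latter by 2.49 inside quadrants. The 6 chains of collagen IV, the basement membrane collagen, were all at least 1.5-fold higher with a median of 1.21, from Col4a3 at 0.67 to Col4a6 at 3.86, or 2.03 inside quadrants, and their control median was 0.32. Col5a2, a minor fibril chain, was higher by 2.55, or 1.77 inside quadrants, and the collagen VI chains Col6a1 and Col6a2 by 1.68 and 1.63. The other classes had larger control medians than collagen IV. These were 1.17 for fibril-associated, 0.84 for network-forming, 0.71 for collagen VI and 0.70 for fibril-forming chains.

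Enzymes that process and cross-link collagen were higher in 17 of 22 members and lower in none at 1.5-fold, with a median of 0.98 and, inside quadrants, of 0.66. Lox, the lysyl oxidase that cross-links collagen and elastin, had 561 against 69 UMIs, a log2 ratio of 2.72 (2.36 to 3.10) or 1.81 inside quadrants, and 7 UMIs in each control group. All 10 small proteoglycans and versican were at least 1.5-fold higher, with a median of 1.52. Fmod, the fibril-binding proteoglycan fibromodulin, was higher by 5.21 (4.15 to 6.54), Bgn (biglycan) by 2.19 and Dcn (decorin) by 1.25, which became 2.19, 1.27 and 0.81 inside quadrants. Of 15 matrix proteases and their inhibitors 9 were higher and 3 lower, against 24.9% and 7.42% of all genes. Mmp2, a gelatinase, was higher by 1.69 and Timp4, the inhibitor most typical of heart muscle, had 17 against 63 UMIs, a log2 ratio of −2.19. Inside quadrants these were 0.87 and −1.06.

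TGF-beta signaling, the main profibrotic pathway, had 12 of 20 members at least 1.5-fold higher and none lower, against 24.9% and 7.42% of all genes, with a median of 0.73. Ltbp3, which anchors latent TGF-beta in the matrix, was higher by 1.84 and the ligand Tgfb3 by 1.82, or 0.95 and 1.16 inside quadrants. There the list median was 0.41 and 5 of 20 members were higher, against 10% of all genes with at least 100 UMIs.

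Markers of resting fibroblasts differed less than matrix genes. Of 14 members 8 were at least 1.5-fold higher and 2 lower, against 24.9% and 7.42% of all genes. The median log2 ratio was 0.65, close to the 0.56 of the control section. Tcf21, a transcription factor of cardiac fibroblasts, was higher by 1.84 and Pdgfra, a receptor that marks fibroblasts, by 1.30, or 1.14 and 0.30 inside quadrants. Clec3b was on the other side at −1.08. Per spot the list had a median of 19.6 UMIs per 10000 in collagen-rich and 13.5 in collagen-poor spots.

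Other cell types the section could hold also moved with the score, and their part in the results above was not tested. Of 18 macrophage genes 16 were at least 1.5-fold higher and none lower, against 24.9% and 7.42% of all genes, with a median of 1.59. Inside quadrants the median was 0.66 with 11 members higher, and 0.56 with 9 higher when blood-rich spots were also left out. The shares of higher genes with at least 100 UMIs in those settings were 10% and 7.47%. The macrophage median in the control section was 0.23. H2-Aa, a class II chain, was the highest member at 2.80 and Cd163, a scavenger receptor, the lowest at 0.47. Cd74, the class II invariant chain, was higher by 2.00. Inside quadrants H2-Aa was at 0.97 and Cd74 at 0.81, and Cd74 had control levels of 236 and 248 CPM. The macrophage receptor Csf1r was higher by 0.97, and Adgre1, which encodes F4/80, had 14 against 4 UMIs. Without blood-rich spots the macrophage median was 1.45. Of the 3 lymphocyte and neutrophil genes with at least 20 UMIs none was past 1.5-fold, with a median of −0.54.

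Smooth muscle and pericyte genes were higher in 9 of 15 members and lower in 1, against 24.9% and 7.42% of all genes. Their median was 0.89 and, inside quadrants, 0.49. The contractile smooth muscle genes Cnn1, Tagln and Myh11 were higher by 4.24, 2.49 and 1.72, or 2.81, 1.80 and 1.26 inside quadrants. Smtn, also of smooth muscle, was at −0.16 inside quadrants. The pericyte gene Abcc9 was lower, at −0.89, but pericyte genes went both ways. Inside quadrants Cspg4 was at 0.84, Pdgfrb at 0.50, Kcnj8 at 0.09, Rgs5 at −0.08, Higd1b at −0.35 and Abcc9 at −0.80. Myh11 was concentrated in few spots, with 67.3% of its 110 UMIs in 15 of the 153 collagen-rich spots. Acta2, smooth muscle actin, was higher by 1.14 overall and by 1.77 in quadrant 3, but at −0.18 in quadrant 1 and 0.48 inside quadrants. Endothelial genes had a median of 0.07, a sign that turned to −0.15 under TMM scaling, with 4 of 18 members higher and 2 lower against 24.9% and 7.42% of all genes, shares near the background. The venous genes Plvap and Vwf were higher by 2.16 and 1.72, whereas Kdr, the receptor of capillary endothelium for VEGF, was at −0.63. Epicardial genes were sparse, with 2 of 4 members higher and 1 lower, against 24.9% and 7.42% of all genes. Their median was 0.94 and, inside quadrants, 1.14. Inside quadrants Krt8 was at 2.94, Aldh1a2 at 1.89, Wt1 at 0.40 and Krt19 at −0.82. Wt1 had 12 against 11 UMIs, and Upk3b, with too few UMIs to be counted, had 2 against 1. Of 7 atrial genes 5 were higher, against 24.9% of all genes, with a median of 0.80. The atrial light chain Myl7 had 114 against 11 UMIs, a log2 ratio of 3.07 or 0.78 inside quadrants. The 3 valve and tendon genes with at least 20 UMIs were all higher, with a median of 1.22. Inside quadrants 2 of 4 were higher, with a median of 0.65, against 10% of all genes with at least 100 UMIs.

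**Figure D3:**
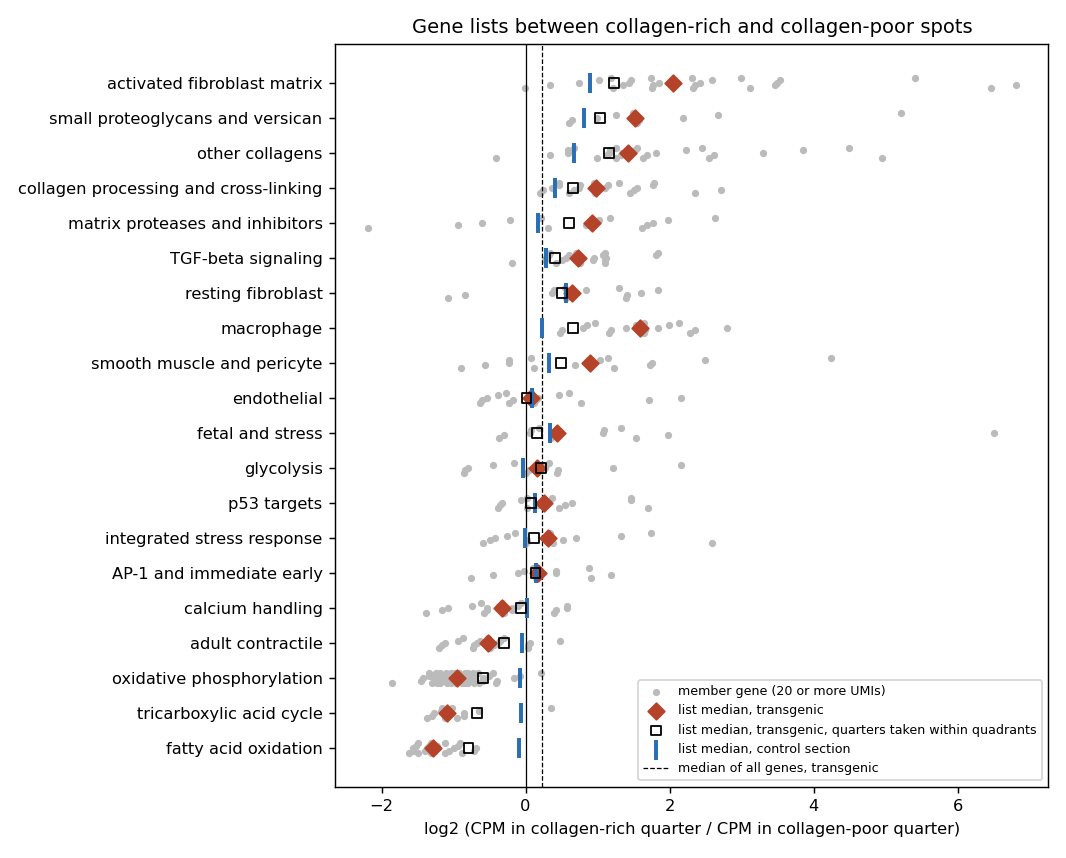
Log2 ratio of collagen-rich over collagen-poor CPM for the members of 20 gene lists (gray points, members with at least 20 UMIs). Red diamonds mark the median of each list in the transgenic section, open squares the median with groups formed inside quadrants, blue bars the median in the control section, and the dashed line the median of all genes at this count. The fatty acid oxidation median lay at −1.29 in the transgenic and −0.10 in the control section.

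Mitochondrial genes were lower in collagen-rich spots with few exceptions. Of 65 oxidative phosphorylation genes 58 were at least 1.5-fold lower and none higher, against 7.42% and 24.9% of all genes. Their median log2 ratio was −0.95, and −0.99 without blood-rich spots and −0.08 in the control section. Inside quadrants it was −0.59, and 33 of 65 were lower, against 3.78% of all genes with at least 100 UMIs. As a sum the list took 4.20% of UMIs in collagen-rich and 8.25% in collagen-poor spots, against 10.5% and 11.1% in the control section. The 5 complexes of the respiratory chain had similar medians, of −0.93 for complex I, −0.98 for complex II, −1.01 for complex III, −0.92 for complex IV and −0.91 for ATP synthase. Cox7a1, the heart and skeletal muscle isoform of a complex IV subunit, was lowest at −1.85 (−1.93 to −1.78), or −1.19 inside quadrants.

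Per spot, Cox7a1 ranged from 0.83 to 19.8 UMIs per 10000 in collagen-rich spots with a median of 6.56. In the 138 collagen-poor spots that were not blood-rich it ranged from 13.9 to 51.5 with a median of 27.2. The ranges overlapped in few spots, with 145 of 153 collagen-rich spots under the lowest of these collagen-poor spots. The control medians were 51.9 in collagen-rich and 56.3 in collagen-poor spots.

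Fatty acid oxidation had the lowest median of the metabolic lists, with 23 of 23 genes at least 1.5-fold lower and a median of −1.29, or −1.32 without blood-rich spots and −0.79 inside quadrants. Fabp3, which carries fatty acids in muscle cells, was at −1.49. Cpt1b, the gate of fatty acid entry into mitochondria, was at −1.11 and Eci1, an enzyme of unsaturated fatty acid breakdown, at −1.61. Of 15 tricarboxylic acid cycle genes 14 were lower, with a median of −1.09, and Idh3b was the exception at 0.36.

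Glycolysis genes had no common direction, with a median of 0.16 that turned to −0.06 under TMM scaling. Of 14 members 2 were higher and 3 lower at 1.5-fold, against 24.9% and 7.42% of all genes. Aldoc, an aldolase, was the highest member at 2.16 on 22 against 4 UMIs and the muscle enolase Eno3 the lowest at −0.86. Among isoforms of 1 step, chosen after their values were seen, the muscle-type form was the lower one except in the hexokinases. The glucose transporters Slc2a1 and muscle-type Slc2a4 were at 1.22 and −0.80. The phosphofructokinases Pfkp, Pfkl and muscle-type Pfkm were at 0.45, −0.16 and −0.45. Inside quadrants the phosphoglycerate mutases Pgam1 and muscle-type Pgam2 were at 0.28 and −0.52. The hexokinases Hk1 and Hk2, of which Hk2 is the muscle-type one, were at 0.27 and 0.43.

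By the naming rule the 10 genes lowest in collagen-rich spots were Fbp2, Ckmt2, Gpt, Cish, Tufm, Tfrc, Epb41, Ccdc141, Kcnj3 and Tmem143. The rule asked for the same sign in quadrants 1 to 3, which 106 of the 495 lower genes had in quadrant 2, where the collagen-poor spots were blood-rich, so that those spots decided in large part which lower genes were named. Ckmt2, the mitochondrial creatine kinase of muscle, had 1540 against 5278 UMIs, a log2 ratio of −2.08 and 4.23-fold lower or −1.33 inside quadrants, with 150 of 153 collagen-rich spots under the lowest collagen-poor spot that was not blood-rich. Fbp2, a fructose bisphosphatase of muscle, was at −2.22 and Gpt, an alanine aminotransferase, at −1.96, or −1.56 and −0.97 inside quadrants. Tfrc, the receptor for iron-loaded transferrin, was at −1.45, or −1.53 without blood-rich spots and −0.86 inside quadrants. Epb41, a red cell membrane skeleton gene, was at −1.45 but at −0.54 without blood-rich spots. Chosen after their values were seen, the cytosolic creatine kinase Ckm was at −1.59 and Mb, the oxygen-binding myoglobin, at −1.34, with control ratios of −0.12 and −0.03.

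Contractile genes were lower to a smaller extent. Of 19 adult contractile genes 9 were at least 1.5-fold lower and none higher, against 7.42% and 24.9% of all genes. Their median was −0.52, or −0.56 without blood-rich spots, −0.30 inside quadrants and −0.04 in the control section. The essential light chain Myl3 was lowest at −1.20, followed by Myoz2 at −1.16 and the regulatory light chain Myl2 at −1.12, and inside quadrants they were at −0.75, −0.80 and −0.71. Tnni3, cardiac troponin I, was at −0.87, or −0.59 inside quadrants. Des, the intermediate filament desmin, was the highest member at 0.47, and Tpm1 was at 0.06. Smyd1, a muscle methyltransferase, was at −0.63 (−0.78 to −0.48), or −0.37 inside quadrants. Its median was 2.47 UMIs per 10000 in collagen-rich and 3.59 in collagen-poor spots, with ranges that overlapped, and 8.09 in both control groups.

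The ratio of mitochondrial to contractile UMIs also differed between the groups. There were 0.924 oxidative phosphorylation UMIs per contractile UMI in collagen-poor spots (0.918 to 0.930), then 0.747 and 0.654 in the groups between and 0.624 in collagen-rich spots (0.619 to 0.629). The 4 groups of the control section lay between 0.935 and 0.955. The corresponding ratio for fatty acid oxidation was 0.369 in collagen-poor and 0.206 in collagen-rich spots, against 0.327 and 0.316 in the control section. Leaving the blood-rich spots out of the collagen-poor group left both ratios at 0.924 and 0.369. Calcium handling genes differed less, with 5 of 19 members lower and none higher, against 7.42% and 24.9% of all genes. Their median log2 ratio was −0.32. Inside quadrants the median was −0.07 over 21 members, 4 of them lower and 2 higher. The shares of all genes with at least 100 UMIs there were 3.78% and 10%. With blood-rich spots also left out it was −0.17 over 20 members. The ratio of calcium handling to contractile UMIs was 0.213 in collagen-poor and 0.197 in collagen-rich transgenic spots, and 0.305 and 0.306 in the control section. Within that list Casq2, which stores calcium in the sarcoplasmic reticulum, was at −1.39 and Hrc at −1.07, whereas Atp2a2, the calcium pump SERCA2, was at −0.54 and Cacnb2 at 0.58.

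**Figure D4:**
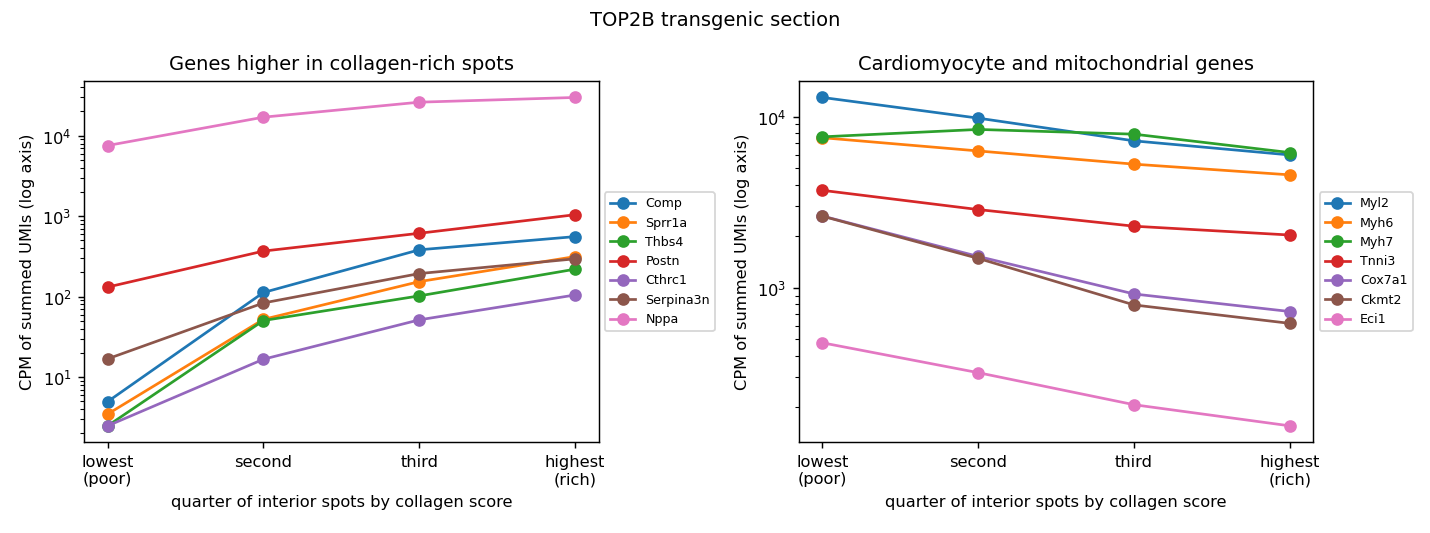
CPM of summed UMIs, on a log axis, in the 4 groups of interior transgenic spots ranked by collagen score. Left, genes higher in collagen-rich spots, among which Comp went from 4.97 CPM in the collagen-poor group to 113, 382 and 558 CPM in the groups above it. Right, cardiomyocyte and mitochondrial genes, of which all but Myh7 decreased at each step.

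Fetal and stress genes of the cardiomyocyte did not move as 1 group. Of 13 members 6 were at least 1.5-fold higher and none lower, against 24.9% and 7.42% of all genes. The median was 0.44, or 0.16 inside quadrants. Sprr1a, a small proline-rich protein induced in stressed cardiomyocytes, had 783 against 7 UMIs, a 90.6-fold difference with a log2 interval of 5.45 to 7.82, and a single UMI in all control spots of both groups. Its median was 2.23 UMIs per 10000 in collagen-rich spots, with a highest value of 16.1, against 0 and 0.91 in collagen-poor spots. It was found in 135 collagen-rich and 7 collagen-poor spots. The log2 ratio was 5.91 without blood-rich spots and 3.88 with groups formed inside ranges of spot depth. Inside quadrants it was 2.43, or 1.97 there without blood-rich spots.

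Nppa was present in every spot. Its level ranged from 54.7 to 733 UMIs per 10000 in collagen-rich spots with a median of 265, and from 4.15 to 241 in collagen-poor spots with a median of 63.6. The ranges overlapped, and 87 collagen-rich spots lay above all collagen-poor spots. The log2 ratio was 1.98 (1.96 to 2.01), or 1.86 without blood-rich spots and 0.92 inside quadrants. Control spots had Nppa at 525 CPM in collagen-rich and 104 CPM in collagen-poor spots, a log2 ratio of 2.34, against 29877 and 7553 CPM in the transgenic section. Over all interior spots, however, Nppa had a Spearman correlation with the score of only 0.193 in the control section, against 0.656 in the transgenic section. Acta1, skeletal actin, was higher by 1.09 and Gdf15, a stress cytokine, by 1.32. Ankrd1, a stretch-responsive nuclear protein, was at 0.19, a sign that turned to −0.035 under TMM scaling and −0.021 inside quadrants.

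Myh7 did not follow Nppa. It was at 6166 CPM in collagen-rich and 7621 CPM in collagen-poor spots, a log2 ratio of −0.31 (−0.34 to −0.27). Its ratio was −1.09 in quadrant 1, 0.30 in quadrant 3 and −0.36 inside quadrants. The adult heavy chain Myh6 was at 4569 and 7531 CPM, a ratio of −0.72, or −0.41 inside quadrants. The share of Myh7 in the UMIs of both heavy chains was 50.3% in collagen-poor spots (49.7% to 50.9%), 57.2% and 60.0% in the groups between and 57.4% in collagen-rich spots (56.8% to 58.0%). Inside quadrants, where Myh7 was at −0.36 and Myh6 at −0.41, or −0.40 and −0.41 without blood-rich spots, the share differed little. Over all interior spots Myh7 was at 5678, 6280, 8561 and 9868 CPM in quadrants 1 to 4. Myh6 was at 6067, 4518, 7368 and 5361 CPM there. The share is one of probe counts and not of molecules, since the probes of both genes may differ in capture. The control section had a share of 0.0911% and 0.311% in collagen-poor and collagen-rich spots. Collagen-poor transgenic spots, whose collagen score overlapped with that of control spots, thus lay far above them in Myh7 and Nppa and under them in Myh6, where control spots had 18351 and 18858 CPM.

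The p53, stress response and immediate early lists had shares of higher and lower members near those of all genes, which were 24.9% higher and 7.42% lower. Of 16 p53 targets 4 were at least 1.5-fold higher and none lower, with a median of 0.26. Phlda3 was at 1.47, or 0.91 inside quadrants, and Cdkn1a, the cell cycle inhibitor p21, at 0.02. Of 16 integrated stress response genes 4 were higher and 1 lower, with a median of 0.31, Nupr1 at 2.59, or 1.12 inside quadrants, and Atf4, the central factor of the response, at 0.03. Of 12 AP-1 and immediate early genes 3 were higher and 1 lower, with a median of 0.17 that turned to −0.05 under TMM scaling. All 5 cell cycle genes with at least 20 UMIs were at least 1.5-fold higher, from Mcm2 at 0.63 to Tyms at 1.37 on 16 against 5 UMIs, and none reached 100 UMIs. Inside quadrants 6 cell cycle genes reached 20 UMIs, with a median of 0.01 and 1 of 6 at least 1.5-fold higher.

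Over all 613 interior spots, which share 1 library and whose lists share each spot's total with the score, the score and the activated fibroblast list had a Spearman correlation of 0.914 (Pearson 0.898). The correlation was −0.703 for oxidative phosphorylation (Pearson −0.603), 0.621 for macrophage genes (Pearson 0.468), 0.656 for Nppa, −0.128 for Myh7 and −0.143 for endothelial genes. For total UMIs it was 0.294.

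Inside the collagen-rich group the pairs of leading genes differed in how far they varied together. Over its 153 spots Comp had a Spearman correlation of 0.528 with Fmod, 0.357 with Thbs4, 0.294 with Sprr1a, 0.106 with Cthrc1 and −0.00 with Postn, whereas Postn correlated with Cthrc1 (0.586) and with Sprr1a (0.609), and Thbs4 with Cthrc1 (0.486). Sprr1a correlated with Acta1 at 0.533 and with Myh7 at −0.578. These values describe 1 section and 1 library, and the genes in each pair share the total of the spot.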

How the data were processed

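Visium CytAssist libraries of 1 control and 1 TOP2B transgenic heart section, cut at 5 μm on a capture area 6.5 mm wide, were analysed. For each spot, UMI counts of 19465 genes were deposited by the authors without normalization, and the header of that file names Space Ranger 2.0.0. The processing notes name the genome builds GRCm39 and mm39. Moran's I, a score that the authors deposited, and p-values beside it were not used for any result. Spot positions came from other deposited columns (in_tissue, row and column). Total counts were 12953389 UMIs in the transgenic and 14376300 in the control section.

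UMIs were summed over the spots of each group and divided by their total. Ratios have exact conditional binomial 95% intervals, which cover counting error only, and no p value was computed because the spots came from a single section. The Wilcoxon test over spots in the methods was not repeated. Genes past 1.5-fold were counted among those with at least 100 UMIs over both groups, or 20 for the 26 gene lists, and 0 UMIs were replaced by 3, the floor. Symbols on more than 1 row (11) were left out of the lists. Named are the 10 highest and 10 lowest genes with at least 200 UMIs and the same sign in each quadrant with at least 10 spots of both groups, the members with the highest and lowest ratio in each list, the score genes, a fixed group of marker genes and other list members. The members, lists and settings were chosen with earlier results of these data known. Alternatives used edgeR 4.0.16 and DESeq2 1.42.0 in R 4.3.3 for scaling only, other spot choices, thinning to 5000 UMIs, and, chosen after seeing the data, leaving out spots rich in erythroid or atrial genes. The calculation was tested on simulated data. Calculations were run in Python 3.11.15 (pandas 2.3.3, scipy 1.17.1, numpy 2.4.6).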

Additional observations from a re-analysis of the deposited data

Results flagged for a closer look

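In 2 genes the ratio of collagen-rich over collagen-poor spots lay past 1.5-fold in opposite directions in the transgenic and control sections, with and without blood-rich spots. Socs2, an inhibitor of cytokine signaling, was at −0.73 on the log2 scale in the transgenic and at 0.59 in the control section. Phlda1 was at −0.87 in the transgenic and at 0.67 in the control section. The control value of Socs2 lay close to the limit of 0.585. Of the genes past 1.5-fold in the transgenic section, 884 higher and 476 lower ones were also counted in the control section. Of these, 116 and 0 were past 1.5-fold in the same direction in the control section, where 190 genes were higher and 15 lower. There 2.85% of all genes were higher and 0.225% lower, so that the 2 genes are a small count. With 1 section of each genotype these differences were not tested.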

How the results depend on the processing

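No paired analysis was possible because each genotype had 1 section, which also left no replicate to leave out. The main values were 1143 genes higher, 495 lower, a log2 ratio of 1.73 for summed activated fibroblast UMIs and −0.97 for summed oxidative phosphorylation UMIs, and both list ratios kept their direction under the settings run. The order of the counts did not, with more lower than higher genes under TMM factors, DESeq2 size factors and a minimum of 1000 UMIs. The cause of each shift was not tested. In this order of the 4 results, edgeR TMM factors gave 659, 841, 1.51 and −1.19, and DESeq2 size factors 634, 906, 1.49 and −1.22. Forming the groups inside quadrants gave 634, 240, 1.14 and −0.61. Splitting the spots at the median score gave 839, 296, 1.03 and −0.68, and the highest and lowest 10% of spots gave 703 higher genes and 2.11 for the fibroblast list. Thinning to 5000 UMIs, which kept 603 spots and left out 10, gave 437, 299, 1.62 and −0.96. Spots 2 or more steps from the edge gave 754 higher genes and −1.04 for oxidative phosphorylation. Ranking on one random part of the UMIs gave 672 higher genes and 1.66. The number of genes tested differed between these settings, so that the counts cannot be compared as they stand. It was 6293 in the main comparison, 6342 inside quadrants, 8615 for the median split and 2967 for the 10% of spots. After thinning it was 2678, for spots 2 or more steps from the edge 4585 and for the random part 3919. The gene minimum moved the counts alone, to 5510 and 3152 at 1 UMI, 2612 and 779 at 20 UMIs and 122 and 154 at 1000 UMIs. The list ratios were 1.66 and −1.05 without the 50 most abundant genes, 1.83 and −0.89 as means over spots, 1.54 and −0.88 inside ranges of depth, 1.62 and −0.87 with edge spots kept, 1.67 and −0.99 by the score of the 6 neighbors, and 1.55 and −0.89 by Col1a1 alone. Leaving out the spots richest in smooth muscle genes gave 1.77 for the fibroblast list. Chosen after seeing the data, leaving out spots over 10% erythroid UMIs gave 1.68 and −1.01, the spots richest in erythroid genes 1.69 and −1.02, and those richest in atrial genes −0.96 for oxidative phosphorylation. Ankrd1, at 0.19, turned to −0.035 under TMM factors, −0.058 under DESeq2 factors and −0.021 inside quadrants. Depth limits the genes with few UMIs most, such as Col12a1 with 38 against 1 UMIs and a log2 interval of 2.38 to 10.3.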
